A study of Mus musculus with 30 samples.

Results

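The transcriptional response of wild-type (WT) mouse macrophages to lipopolysaccharide (LPS) given together with interferon-γ was described across all genes. LPS is a component of the outer membrane of Gram-negative bacteria, and interferon-γ is a cytokine made by T and NK cells. The libraries were chosen by their titles as 5 of WT macrophages labelled M1 and 5 of WT macrophages labelled M0, 10 of the 30 in the series. M1 cells had received LPS and interferon-γ, each at 20 ng/mL, and M0 cells were left without stimulus. Cells were grown from bone marrow of WT mice for 7 days in medium holding 15 or 20% L929-conditioned medium, which supplies the growth factor M-CSF, and the labels give neither the duration of the stimulus nor the age or sex of the mice. Where the response is set against other groups, these are TRα1PV M1 and TRα1PV M0, from mice carrying a mutant thyroid hormone receptor α1, and WT M2, given interleukin-4 at 20 ng/mL, with 5 libraries each. The labels call all of them biological replicates and do not say whether each came from 1 mouse. The p-values therefore measure the spread between libraries, estimated for genes over all 30 of the series, TRα1PV M2 included.

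LPS binds Toll-like receptor 4 (TLR4) with its partners MD-2 and CD14, and the adaptors MyD88 and TRIF carry the signal to NF-κB, AP-1 and IRF3. IRF3 drives interferon-β, which acts back on the cell through the type I interferon receptor. Interferon-γ binds its own receptor and activates STAT factors through the kinases JAK1 and JAK2. Macrophages exposed to both are known for making nitric oxide, interleukin-12 and T cell-attracting chemokines, for presenting antigen, and for a shift toward glycolysis.

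Read counts in genes were 31566297 to 36018814 per M1 library and 28853239 to 39104858 per M0 library, and 15686 of 55414 genes had enough reads to be tested. Levels are in CPM, the read count scaled to a common library size by the TMM factors and given as the mean of 5 libraries, and ± beside a level is the SD. Fold changes are log2 values of M1 over M0 from edgeR's quasi-likelihood fit, and ± beside them is the standard error. A gene is said to have risen or fallen when a test against a 2-fold change gave a Benjamini-Hochberg adjusted p under 0.05, and to be called higher or lower when the same adjusted p was reached against no change. The first principal component of the 10 libraries carried 93.2% of the variance and separated M1 from M0. WT M0 replicate 2 stood apart on the second (3.27%). In that library 13.9% of reads lay outside genes (8.66 to 10.8% in the M1 and 9.42 to 11.7% in the other M0 libraries), and 4.56% of reads in genes came from the mitochondrial genome (0.755 to 1.20% in the M1 and 0.921 to 2.07% in the other M0 libraries).

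All 12 markers fixed for macrophages were expressed in both states, but not at one level. Past 2-fold 1 rose and 4 fell, beside 16.4% and 17.9% of all genes, and at any size 5 were called higher and 6 lower. The summed level of the 12 markers was 9387 to 11121 CPM in M1 and 29948 to 34837 CPM in M0. Most of that gap came from lysozyme Lyz2 (3693 CPM in M1 and 23319 CPM in M0) and the M-CSF receptor gene Csf1r, while Adgre1, which encodes F4/80, was at 2435 CPM in M1 and 1460.1 CPM in M0 and the high-affinity IgG receptor gene Fcgr1 at 892 CPM in M1 and 136 CPM in M0. Csf1r had 590.1, 574, 509.9, 559 and 588 CPM in the 5 M1 libraries, against 5057, 3531, 4494, 4662 and 3974 CPM in the 5 M0 libraries. Each M1 value lay below each M0 value, and Csf1r fell by 2.94 ± 0.11 (adjusted p = 3.54e-21). In bulk RNA a smaller share of a cell type and less of its RNA per cell cannot be told apart.

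Markers of other cells were low in both states. Of 12 tested markers of neutrophil precursors, 10 fell and none rose, and their summed level was 200.1 to 275 CPM in M1 and 358 to 498 CPM in M0. Elastase, Elane, had no read in M1, and its M0 mean was 1.07 CPM. The fibroblast markers summed to 8.16 to 9.99 CPM in M1 and 8.22 to 27.5 CPM in M0, with 7 of 10 falling and 1 rising. The tested markers of B cells (1), of T and NK cells (2) and of mast cells, basophils and eosinophils (3) summed to under 1 CPM in each M1 library and to at most 15.4 CPM in an M0 library. Of 9 dendritic cell markers 4 rose, Xcr1 and Clec9a among them, and 3 fell (sums 134 to 155 CPM in M1 and 154 to 230.2 CPM in M0), of 4 endothelial markers 1 rose (143 to 183 and 108 to 186 CPM), of 3 erythroid and platelet markers 1 rose and 2 fell (51.7 to 67.6 and 151 to 213 CPM), and of 7 osteoclast markers 2 rose and 2 fell (105 to 130.4 and 195 to 239 CPM). The part of these cells in the results was not tested. Of all tested genes, by comparison, 16.4% rose and 17.9% fell.

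The response reached most of the expressed genome. Of 15686 genes 79.6% were called, 6184 higher (39.4%) and 6303 lower (40.2%) in M1. In 9691 genes (61.8%) the 5 M1 libraries did not overlap with the 5 M0 libraries, all M1 libraries lying above in 31.5% and below in 30.3% of genes. Past 2-fold, 2573 genes rose (16.4%) and 2807 fell (17.9%). Called changes of over 16-fold numbered 550 upward and 398 downward, and changes of over 256-fold numbered 94 upward and 17 downward. Genes that rose held 42.3 to 43.7% of the reads in genes in M1 and 10.3 to 10.97% in M0, and genes that fell held 3.34 to 3.69% in M1 and 20.8 to 21.5% in M0.  With library totals alone in place of the TMM factors, the median of all genes moved to -0.49 on the log2 scale (-0.02 with TMM), and 3907 genes were called higher and 8838 lower, so directions of small changes hold relative to the bulk of genes.

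**Figure D1:**
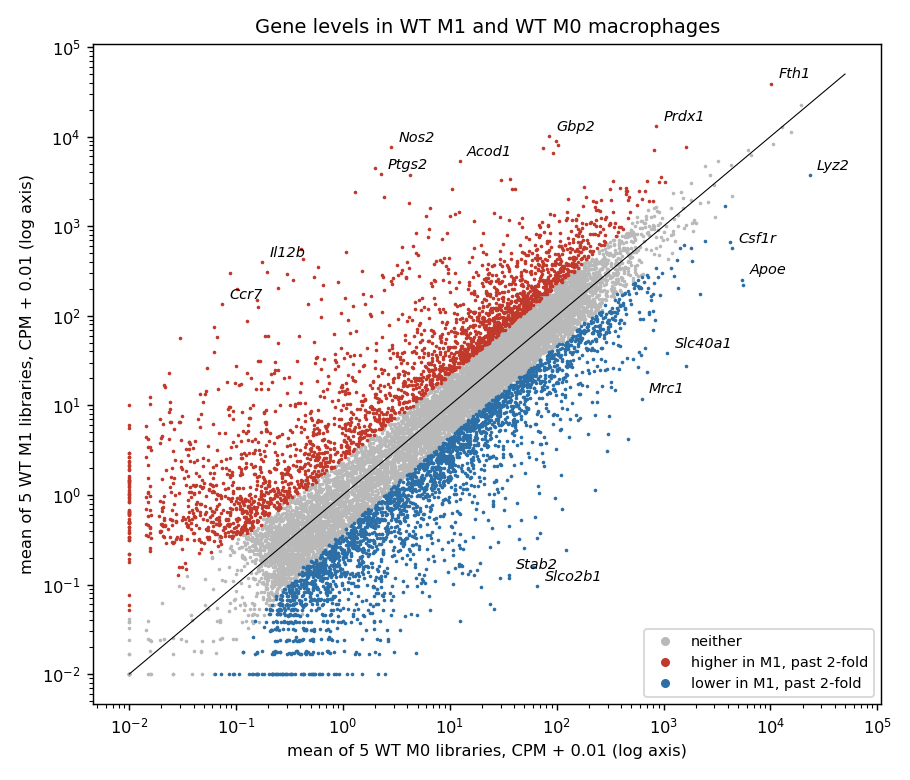
Mean level of each of 15686 tested genes in WT M1 (vertical) and WT M0 (horizontal), in CPM plus 0.01 on log axes, coloured by the test against a 2-fold change. The 2573 genes in red rose, the 2807 in blue fell, and points on the diagonal line had equal levels.

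In CPM, which are not corrected for gene length, the largest gain was that of ferritin. Fth1, the heavy chain of this iron store, had 41475, 38144, 37790.4, 35773 and 41600.4 CPM in the 5 M1 libraries, against 10031, 10523, 10504, 9835 and 10090.2 CPM in the 5 M0 libraries. It rose by 1.93 ± 0.08 (adjusted p = 4.03e-20), and since Fth1 has near-identical copies in the genome its counts are uncertain. The next gains were those of the peroxidase gene Prdx1 (13006 CPM in M1 and 850.1 CPM in M0), the guanylate-binding protein gene Gbp2 (10169.6 CPM in M1 and 85.5 CPM in M0), the antiviral genes Ifit2 (8895 CPM in M1 and 99.1 CPM in M0) and Rsad2 (7441 CPM in M1 and 75.02 CPM in M0), complement C3 (8149 CPM in M1 and 102 CPM in M0), Nos2, and the nucleotide hydrolase gene Samhd1 (7076 CPM in M1 and 814 CPM in M0). The ligand of the inhibitory receptor PD-1, Cd274, and β2-microglobulin, B2m (7731 CPM in M1 and 1631 CPM in M0), completed the 10.

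By fold, the leading increases were genes that were nearly silent in M0. Besides Cxcl11, Nos2, Il12b, Coch and Cxcl9, they were Ccr7, which encodes the receptor that guides cells to lymph nodes (11.01 ± 0.35), Upp1, a uridine phosphorylase (11.01 ± 0.26), Clic5, a chloride channel family member (10.89 ± 0.24), Ptgs2, the inducible cyclooxygenase (10.73 ± 0.24), and the serpin gene Serpina3g (10.71 ± 0.22). Ccr7 had 112, 129, 108, 156 and 173 CPM in the 5 M1 libraries, against 0.113, 0.0766, 0, 0.0664 and 0.0614 CPM in the 5 M0 libraries. Ptgs2 had 3411, 3373, 4315, 4089.6 and 3863 CPM in the 5 M1 libraries, against 3.17, 2.32, 2.28, 1.61 and 1.84 CPM in the 5 M0 libraries. In both genes each M1 library lay far above each M0 library. A further 42 genes had at least 10 reads in each M1 library and no read in any M0 library. Among them the alarmin gene Il33 had 292 reads in M1 and was at least 135-fold higher, the Wnt antagonist gene Sfrp1 at least 187-fold and the gap junction gene Gja4 at least 152-fold, against a floor of 3 reads over the M0 group.

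The largest losses in CPM came from genes of the resting macrophage. Lyz2 had 3970.3, 3443, 3788, 3459 and 3807 CPM in the 5 M1 libraries, against 22327, 21782, 25389.8, 23845 and 23253 CPM in the 5 M0 libraries. Apoe, the apolipoprotein macrophages secrete for lipid export, had 276, 199, 252, 253 and 279 CPM in the 5 M1 libraries, against 5337, 5251, 4981, 6361 and 5269 CPM in the 5 M0 libraries. Neither gene's groups overlapped, and Apoe changed by -4.43 ± 0.26 (adjusted p = 8.08e-16). Selenop, the plasma selenium carrier, fell by 4.65 ± 0.19, the scavenger receptor gene Stab1 by 3.64 ± 0.14 and the translation elongation factor gene Eef1a1, which has near-identical copies, by 2.65 ± 0.09. The membrane protein gene Itm2b (-1.17 ± 0.06) and cathepsin D, Ctsd (-1.02 ± 0.14), were called lower, while cathepsin B, Ctsb (11396 CPM in M1 and 15543 CPM in M0), and the glycoprotein gene Gpnmb (8232 CPM in M1 and 10591 CPM in M0) were called lower within 2-fold, with overlapping libraries in Gpnmb.

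By fold, the decreases were led by Slco2b1, Angptl4 and Adgre4, followed by Adam22, a catalytically inactive ADAM family member (-8.79 ± 0.20), the bone morphogenetic protein gene Bmp2 (-8.32 ± 0.32), the hyaluronan-clearing receptor gene Stab2 (-8.24 ± 0.23), Nat8l, which makes N-acetylaspartate (-8.05 ± 0.27), Hpgd, which degrades prostaglandins (-7.77 ± 0.30), Ighm (-7.67 ± 0.20) and Deptor, an inhibitor of mTOR (-7.66 ± 0.17). Stab2 had 0.102, 0.112, 0.0343, 0.106 and 0.237 CPM in the 5 M1 libraries, against 37.9, 28.5, 31.96, 44.1 and 36.9 CPM in the 5 M0 libraries. Deptor had 0.171, 0.373, 0.48, 0.247 and 0.316 CPM in the 5 M1 libraries, against 57.8, 78.7, 64.9, 55.3 and 68.05 CPM in the 5 M0 libraries. All M1 libraries of both genes were under 1 CPM. Ighm, the immunoglobulin heavy chain constant region, is a B lineage gene. The 1 tested marker of B cells, Cd79b, fell too (0.331 CPM in M1 and 4.61 CPM in M0). Across M0 libraries Cd79b was at 3.01 to 6.03 CPM in WT and 4.96 to 8.06 CPM in TRα1PV, while Ighm was far lower in TRα1PV M0 (levels given below). Their relation was not tested. There were 22 genes with at least 10 reads in each M0 library and none in M1, among them the chemokine gene Cxcl12, at least 37.4-fold lower, and the growth factor gene Fgf1, at least 42.2-fold lower, with the same floor of 3 reads in M1.

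**Figure D2:**
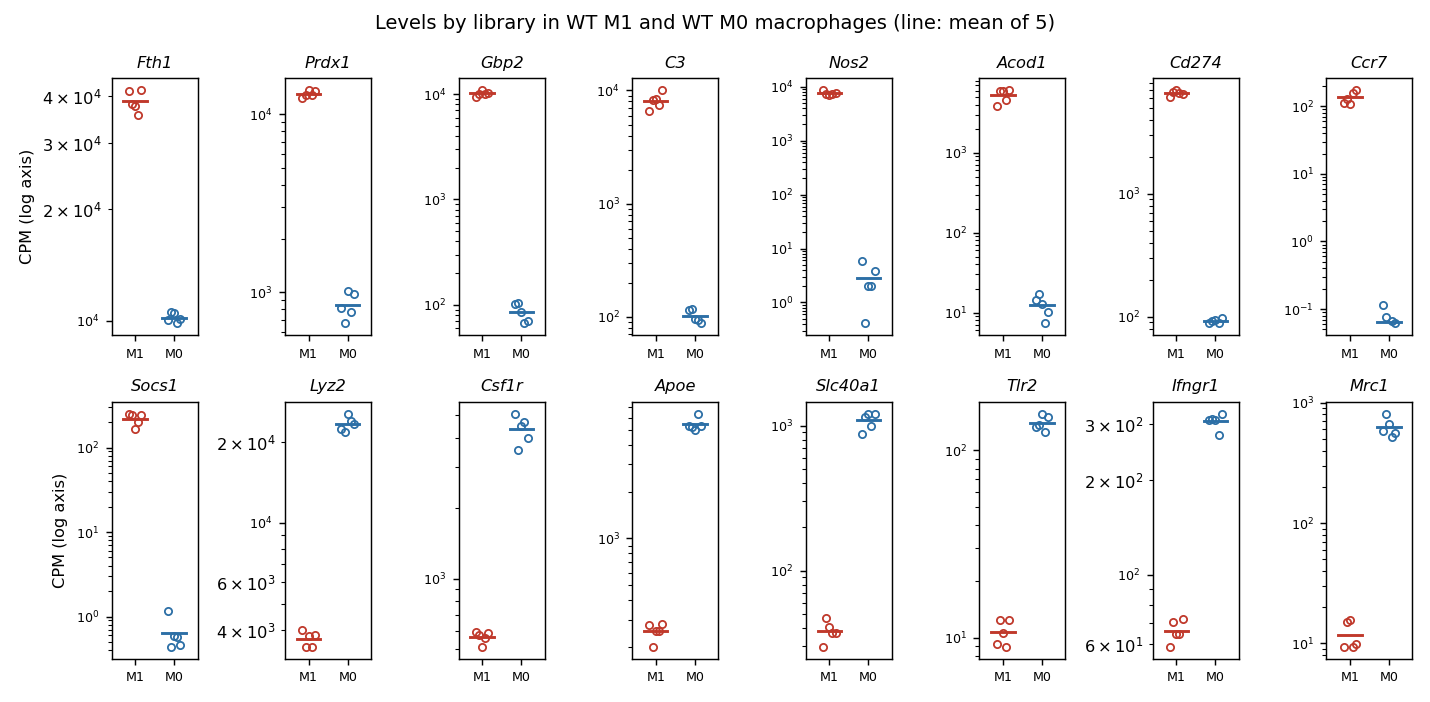
Levels of 16 genes by library in CPM (log axis, each panel with its own range), with WT M1 left of WT M0 and a line at the mean of 5 libraries. In none of the 16 genes do the M1 and M0 libraries overlap, and the M0 library with no Ccr7 read has no point.

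Genes of LPS sensing moved past 2-fold at a share near that of all genes (34.3% in either direction). Of 22 tested genes of the TLR4 pathway 5 rose and 2 fell, beside 16.4% that rose and 17.9% that fell of all genes, and the median was 0.39 (-0.08 with library totals alone), beside -0.02 for all genes. Tlr4 itself was called lower (52.98 ± 13.5 CPM in M1 and 93.7 ± 25.4 CPM in M0) and its partner MD-2, encoded by Ly96, higher (21.4 ± 1.44 CPM in M1 and 13.2 ± 7.46 CPM in M0), with overlapping libraries in both. The TRIF adaptor gene Ticam1 rose by 1.87 ± 0.06, the MyD88 gene by 1.15 ± 0.09, the kinase gene Irak2 by 1.48 ± 0.08 and the IRF3 kinase gene Tbk1 by 1.33 ± 0.08. Irak4, the first kinase of the MyD88 complex, fell by 1.12 ± 0.05. With library totals alone 1 of the 22 rose past 2-fold and 3 fell.

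Among the 13 genes of the Toll-like receptor list 3 rose and 4 fell, beside 16.4% that rose and 17.9% that fell of all genes (median 0.40, and -0.07 with library totals alone). Tlr2, the receptor for bacterial lipoproteins, had 9.22, 12.5, 10.6, 8.9 and 12.4 CPM in the 5 M1 libraries, against 133, 136, 157, 126 and 151 CPM in the 5 M0 libraries. It fell by 3.71 ± 0.09, with no overlap between the groups. Tlr5, which senses flagellin, fell by 5.02 ± 0.16, and the receptors for single-stranded RNA, Tlr8 and Tlr7, by 3.16 ± 0.25 and 1.75 ± 0.18. The receptors for double-stranded RNA and for unmethylated DNA rose, Tlr3 by 1.73 ± 0.15 and Tlr9 by 3.10 ± 0.08 (559.5 CPM in M1 and 65.03 CPM in M0).

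Downstream, 10 of 11 tested NF-κB family genes were called higher, beside 39.4% of all genes, and 4 rose, beside 16.4%, while 1 was called lower (median 0.77). With library totals alone 7 were called higher. The 4 that rose were the inhibitors Nfkbia (2.64 ± 0.08), Nfkbib (2.29 ± 0.09) and Nfkbie (2.99 ± 0.14) and the atypical member Bcl3 (1.63 ± 0.09). The DNA-binding subunits Rela (0.77 ± 0.07) and Rel (0.71 ± 0.10) were called higher within 2-fold. Of 15 AP-1 and ATF genes 8 rose and 1 fell, beside 16.4% and 17.9% of all genes. The increases were led by Batf2 (4.94 ± 0.14) and Atf3 (2.66 ± 0.07), and Fosl2 fell by 1.28 ± 0.11.

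Most genes that restrain these pathways rose. Of 20 tested brakes 15 rose and 1 fell, beside 16.4% that rose and 17.9% that fell of all genes, and 4 were called lower at any size (median 2.08). Socs1, which blocks JAK kinases, had 251, 243, 167, 201 and 242 CPM in the 5 M1 libraries, against 1.16, 0.434, 0.589, 0.575 and 0.46 CPM in the 5 M0 libraries. The groups did not overlap, and Socs1 rose by 8.42 ± 0.21 (adjusted p = 2.88e-25). Usp18, which quiets the type I interferon receptor, rose by 6.48 ± 0.20, Socs3 by 5.79 ± 0.19, the ubiquitin editor A20, encoded by Tnfaip3, by 2.65 ± 0.07, and the phosphatase genes Dusp1 and Dusp16 by 2.33 ± 0.14 and 2.89 ± 0.10. The RNA-destabilising factors Zfp36 and Zc3h12a rose by 1.72 ± 0.10 and 1.84 ± 0.09. The linear-ubiquitin hydrolase gene Otulin fell by 1.16 ± 0.06.

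Of 26 listed cytokine genes 22 were tested, and 15 rose and 3 fell, beside 16.4% and 17.9% of all genes (median 3.59). Il12a, Il23a, Csf2 and Csf3 had too few reads to be tested. Tnf rose by 4.73 ± 0.18 (298 ± 84.6 CPM in M1 and 11.2 ± 2.08 CPM in M0) and Il6 by 8.14 ± 0.38, to a level of 27.3 CPM in M1 against 0.0905 CPM in M0. Interleukin-1α, Il1a, rose by 4.70 ± 0.25, and interleukin-1β, Il1b, was called higher at 1.36 ± 0.23 without passing the 2-fold test. The antagonist of both, Il1rn, had 1128, 988, 1446, 1283 and 937 CPM in the 5 M1 libraries, against 15.6, 18.1, 20.3, 14.1 and 16.1 CPM in the 5 M0 libraries. Its groups did not overlap, and it rose by 6.10 ± 0.16. The interleukin-18 binding protein, Il18bp, also rose (368 CPM in M1 and 26.1 CPM in M0), as did Il18 (36.2 CPM in M1 and 8.99 CPM in M0).

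Cytokines that act on T and NK cells rose too, Il27 by 6.23 ± 0.19, Il15 by 2.93 ± 0.09, and the TNF family ligands Tnfsf10 and Tnfsf15 by 4.66 ± 0.21 and 4.65 ± 0.26. The interferon-β gene Ifnb1 was at 2.37 CPM in M1 and 0.0208 CPM in M0. Among cytokines that fell were Il16, by 4.92 ± 0.09, and Tgfb1, by 1.31 ± 0.06. Il10, whose libraries overlapped, was called higher, at 2.82 ± 0.624 CPM in M1 and 1.79 ± 0.436 CPM in M0.

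The chemokines split into sets that moved in opposite directions. Of 23 tested 11 rose and 9 fell, beside 16.4% and 17.9% of all genes (median 1.62). The ligands of CXCR3, which draw T and NK cells, all rose, Cxcl9 being at 4515 CPM in M1 and 1.96 CPM in M0, Cxcl10 at 1357 CPM in M1 and 11.2 CPM in M0 and Cxcl11 at 298 CPM in M1 and 0.0777 CPM in M0. Ccl5 had 3743, 4049.6, 3104, 3219 and 4421 CPM in the 5 M1 libraries, against 7.39, 2.99, 4.3, 2.81 and 3.5 CPM in the 5 M0 libraries. It rose by 9.79 ± 0.29, and the monocyte-attracting Ccl2, Ccl7, Ccl8 and Ccl12 rose by 7.05, 6.42, 7.30 and 6.46. The neutrophil-attracting Cxcl1 (0.122 CPM in M1 and 1.07 CPM in M0) and Cxcl2 (0.816 CPM in M1 and 9.79 CPM in M0) fell, and so did Ccl3, by 1.27 ± 0.15, Ccl9, by 1.21 ± 0.10, and Ccl6, by 3.72 ± 0.14. Ccl4 was called lower with overlapping libraries (6.38 ± 1.73 CPM in M1 and 9.43 ± 2.1 CPM in M0).

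Of 14 tested receptors for chemokines and related attractants 6 rose and 6 fell, beside 16.4% and 17.9% of all genes. Beside Ccr7, the formyl peptide receptor genes Fpr2 (6.83 ± 0.30) and Fpr1 (4.45 ± 0.34), Ccrl2 (3.43 ± 0.13) and Ccr1 (2.13 ± 0.18) rose. The CXCL12 receptor gene Cxcr4 fell by 4.27 ± 0.16 (7.88 CPM in M1 and 153 CPM in M0), the C5a receptor gene C5ar1 by 3.06 ± 0.11 and the fractalkine receptor gene Cx3cr1 by 2.70 ± 0.29. The median of the list was -0.14, and 0.06 without WT M0 replicate 2, and Ccr2, called lower with that library and not without it, was at 41.8 ± 8.83 CPM in M1 and 63.99 ± 26.7 CPM in M0.

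Interferon signalling genes were higher at nearly every step. Of 15 tested genes for receptors, JAK kinases, STAT factors and IRF factors 8 rose and 1 fell, beside 16.4% and 17.9% of all genes. Called higher were 14, beside 39.4% of all genes (median 1.37), and 11 with library totals alone. Irf7, the factor that amplifies type I interferon, rose by 5.999 ± 0.24, Irf1 by 3.99 ± 0.09 (2018 CPM in M1 and 127 CPM in M0), Stat2 by 3.27 ± 0.12 and Jak2 by 3.20 ± 0.10. The exception was the ligand-binding chain of the interferon-γ receptor. Ifngr1 had 58.8, 70.8, 64.7, 64.7 and 72.3 CPM in the 5 M1 libraries, against 308, 313, 310.2, 278 and 324 CPM in the 5 M0 libraries. It fell by 2.21 ± 0.07 (adjusted p = 3.45e-23) with no overlap, while the second chain, Ifngr2, was called higher by 0.92 ± 0.04 and the type I receptor chain Ifnar1 rose by 1.37 ± 0.05.

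Every tested member of the interferon-inducible GTPase list rose, 19 of 19, beside 16.4% of all genes (median 6.53). These are the guanylate-binding proteins and immunity-related GTPases, which attack the vacuoles of intracellular pathogens. Their summed level was 22551 to 28259.5 CPM in M1 and 372 to 551 CPM in M0. Gbp2 had 9365, 10123, 10926, 10078 and 10357 CPM in the 5 M1 libraries, against 101, 104, 84.9, 66.5 and 70.6 CPM in the 5 M0 libraries. Gbp5 reached 3367 CPM in M1 and 36.5 CPM in M0, Gbp4 2139 CPM in M1 and 2.4 CPM in M0 and the IRG member Iigp1 2586 CPM in M1 and 10.5 CPM in M0. The smallest change was that of Irgm2 (3.30 ± 0.11) and the largest that of Gbp10 (10.04 ± 0.27). Members of these families are alike in sequence, so the split of reads between close copies such as Tgtp1 and Tgtp2 is uncertain.

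The 30 tested type I interferon-stimulated genes all rose, beside 16.4% of all genes (median 3.83, range 1.41 to 8.78). With library totals alone 29 of the 30 rose. Their sum was 40056 to 49192 CPM in M1 and 2477 to 3281 CPM in M0. Rsad2, which encodes the antiviral enzyme viperin, had 5137, 7687, 9196, 6817 and 8366 CPM in the 5 M1 libraries, against 90.7, 83.3, 79.5, 54.1 and 67.5 CPM in the 5 M0 libraries. Oasl1, a regulator of Irf7 translation, rose by 8.78 ± 0.29, Isg15, a ubiquitin-like modifier, by 6.42 ± 0.23, and the GTPase genes Mx1 and Mx2 by 6.06 ± 0.22 and 5.68 ± 0.22. The RNA sensor genes Ifih1 and Dhx58 rose by 3.13 ± 0.16 and 3.08 ± 0.14.

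Promoters of 4 strongly raised genes are shown, because each holds a match to a motif of the pathways above, together with 2 of cell cycle genes that fell. Each is the 250 bases before the RefSeq start in build GRCm38.p6, 5′ to 3′. Capitals mark matches on either strand to TTCNNNGAA (GAS, bound by STAT dimers), GAAANNGAA (ISRE, bound by STAT and IRF complexes) or GGGANTTNC (κB) in the first 4, and to CCAAT (bound by NF-Y) in the last 2.
Cxcl9 promoter, chr5:92328080-92328329, minus strand: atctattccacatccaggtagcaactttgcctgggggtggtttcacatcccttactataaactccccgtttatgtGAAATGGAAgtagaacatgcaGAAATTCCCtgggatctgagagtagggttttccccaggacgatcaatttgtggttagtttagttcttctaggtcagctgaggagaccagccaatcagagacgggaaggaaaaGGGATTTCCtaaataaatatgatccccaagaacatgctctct
Serpina3g promoter, chr12:104235897-104236146, plus strand: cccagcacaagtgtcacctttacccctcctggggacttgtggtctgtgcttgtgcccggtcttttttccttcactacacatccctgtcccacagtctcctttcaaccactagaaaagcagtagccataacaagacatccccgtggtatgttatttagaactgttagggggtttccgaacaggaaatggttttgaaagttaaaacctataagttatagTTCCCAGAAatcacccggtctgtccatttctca
Rsad2 promoter, chr12:26456453-26456702, minus strand: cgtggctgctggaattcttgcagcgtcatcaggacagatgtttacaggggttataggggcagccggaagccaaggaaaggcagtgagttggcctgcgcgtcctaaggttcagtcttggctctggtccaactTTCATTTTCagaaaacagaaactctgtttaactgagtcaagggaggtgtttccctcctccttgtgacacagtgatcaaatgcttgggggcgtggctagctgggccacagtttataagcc
Ifit2 promoter, chr19:34550444-34550693, plus strand: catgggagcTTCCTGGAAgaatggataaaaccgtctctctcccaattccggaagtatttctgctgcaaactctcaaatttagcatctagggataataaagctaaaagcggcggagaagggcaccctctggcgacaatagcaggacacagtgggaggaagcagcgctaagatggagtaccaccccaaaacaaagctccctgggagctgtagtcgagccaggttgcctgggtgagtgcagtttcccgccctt
Ccnb2 promoter, chr9:70421555-70421804, minus strand: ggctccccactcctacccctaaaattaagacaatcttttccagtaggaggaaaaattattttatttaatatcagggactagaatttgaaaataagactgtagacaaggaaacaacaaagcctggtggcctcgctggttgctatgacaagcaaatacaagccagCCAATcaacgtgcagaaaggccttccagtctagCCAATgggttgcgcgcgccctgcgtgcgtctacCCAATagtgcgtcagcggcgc
Mcm3 promoter, chr1:20820313-20820562, minus strand: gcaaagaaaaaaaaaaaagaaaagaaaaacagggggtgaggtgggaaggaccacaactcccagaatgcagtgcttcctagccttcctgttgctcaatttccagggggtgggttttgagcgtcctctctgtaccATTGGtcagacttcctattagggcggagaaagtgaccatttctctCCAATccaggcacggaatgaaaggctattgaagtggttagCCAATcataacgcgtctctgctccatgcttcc

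In these windows the Cxcl9 promoter held 1 ISRE match and 2 κB matches, the nearest of them a κB match 42 bases before the start. The Rsad2 promoter held 1 ISRE match at 119 bases, and Serpina3g and Ifit2 held 1 GAS match each, at 33 and 241 bases. The windows of B2m, Cd274, Gbp2 and Samhd1 also held matches but overlap annotated exons and are not printed. Over whole table windows of 300 bases, 12.3% of the promoters of genes that rose held an ISRE match (211 of 1722), 6.81% of those of genes that fell (124 of 1822) and 7.56% of all 10440 tested genes with a window. For genes raised over 16-fold the share was 18.8%, for the type I interferon list 54.5% (12 of 22) and for the GTPase list 90.9% (10 of 11). It was 24.3% (9 of 37) for the ribosomal protein list, which fell as a group, 25% (4 of 16) for the MHC class I list and 3.45% (1 of 29) for the cell cycle list. A GAS match was present in 8.25% of promoters of genes that rose, 6.92% of genes that fell and 6.85% of all tested, and in 54.5% of the GTPase list (6 of 11). A κB match was present in 5.75%, 4.12% and 4.94%. Matches of different motifs may share bases, and base composition moves these shares. In the third of promoters with the lowest GC content 20.5% of genes that rose held an ISRE match, 10.4% of genes that fell and 11.6% of the others. These are counts of letters in a window and not measured binding.

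Antigen presentation genes of both classes rose. In the class I pathway all 19 tested genes were called higher and 16 rose, beside 39.4% and 16.4% of all genes (median 2.29). The peptide transporter gene Tap1 rose by 3.91 ± 0.11, the immunoproteasome subunit genes Psmb9, Psmb8 and Psmb10 by 3.21 ± 0.10, 2.29 ± 0.10 and 1.77 ± 0.13, and Nlrc5, the class I transactivator, by 3.27 ± 0.09. H2-K1 was at 3579 CPM in M1 and 958 CPM in M0, and H2-D1, called higher within 2-fold, at 4706 CPM in M1 and 2443 CPM in M0. In the class II pathway 9 of 12 rose and none fell, beside 16.4% and 17.9% of all genes (median 2.88). Ciita, the class II transactivator, rose by 3.11 ± 0.26, and the invariant chain gene Cd74 was at 680.0 ± 126 CPM in M1 and 85.7 ± 35.3 CPM in M0. H2-Ab1 had 202, 191, 139.5, 146 and 198 CPM in the 5 M1 libraries, against 28.4, 17.4, 16.9, 10.9 and 9.82 CPM in the 5 M0 libraries. It rose by 3.39 ± 0.30, and the genes H2-Aa and H2-Eb1 by 2.90 ± 0.35 and 2.87 ± 0.34.

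Of 18 tested genes for costimulation and checkpoints 11 rose and 2 fell, beside 16.4% and 17.9% of all genes (median 1.99). Cd274, the PD-L1 gene, had 6172, 6695, 6984, 6595 and 6496 CPM in the 5 M1 libraries, against 88.3, 91.8, 94.2, 89.6 and 97.9 CPM in the 5 M0 libraries. It rose by 6.16 ± 0.14 (adjusted p = 3.69e-26). Cd40, the receptor for T cell help, rose by 6.93 ± 0.13, the CD28 ligand genes Cd86 and Cd80 by 3.32 ± 0.11 and 1.49 ± 0.14, Slamf7 by 3.92 ± 0.10 and the adhesion molecule gene Icam1 by 2.50 ± 0.12. The checkpoint gene Vsir, which encodes VISTA, fell by 1.93 ± 0.11 and Cd48 by 1.33 ± 0.07.

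**Figure D3:**
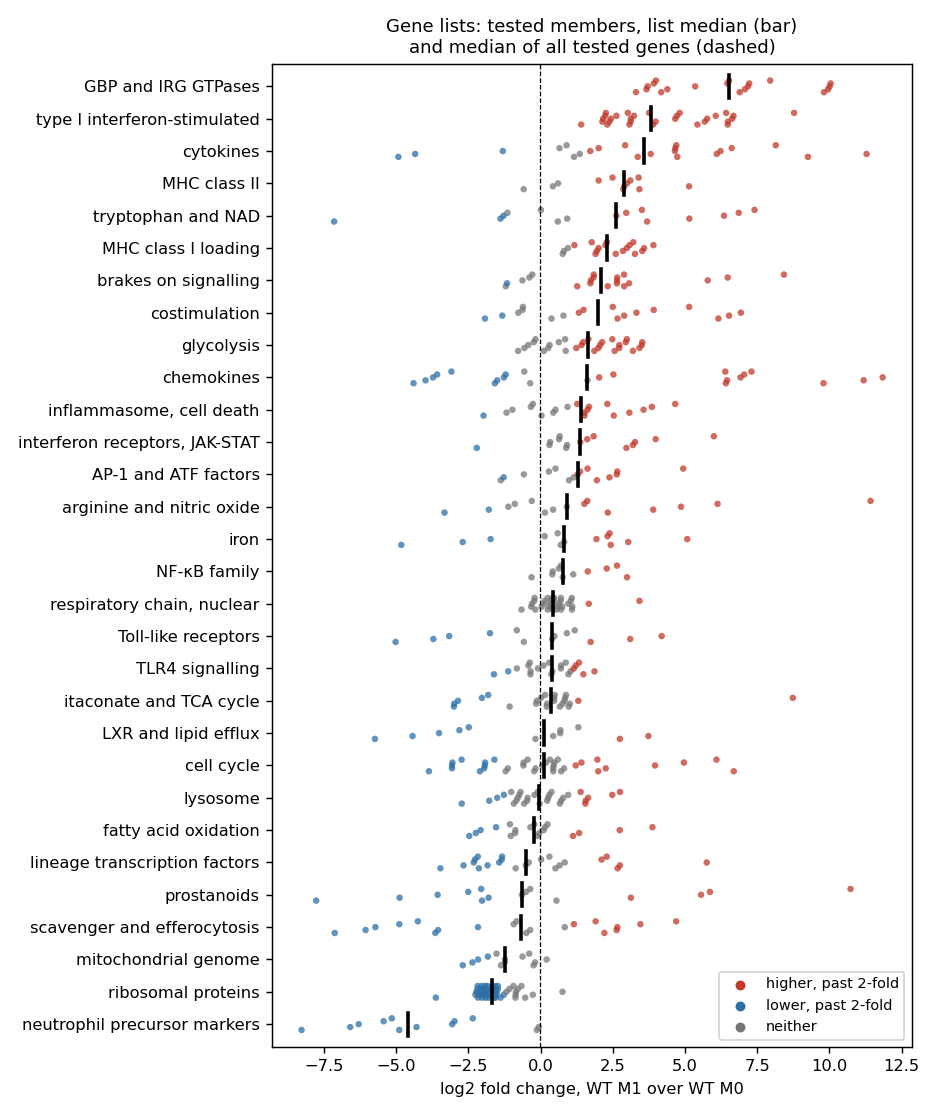
Log2 fold changes of WT M1 over WT M0 for the tested members of 30 gene lists, ordered by list median. Red points rose and blue points fell past 2-fold, grey points did neither, black bars are list medians and the dashed line is the median of all tested genes (-0.02).

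In arginine metabolism the leading increase was that of nitric oxide synthesis. Nos2, the inducible nitric oxide synthase, had 8659, 7194, 7096, 7418 and 7714 CPM in the 5 M1 libraries, against 5.89, 0.408, 2.04, 1.99 and 3.77 CPM in the 5 M0 libraries. The M0 libraries were spread widely, and all of them lay below the lowest M1 library. Of 15 tested genes of arginine and nitric oxide metabolism 7 rose and 2 fell, beside 16.4% and 17.9% of all genes (median 0.91). The arginine transporter gene Slc7a2 rose by 6.13 ± 0.14, the recycling enzyme gene Ass1 by 4.86 ± 0.21, and Gch1, which makes the cofactor of the synthase, by 1.62 ± 0.10. Arg1, the competing arginase, rose as well (7.27 CPM in M1 and 0.494 CPM in M0). Srm, spermidine synthase, fell by 3.33 ± 0.20.

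In the tricarboxylic acid (TCA) cycle list the largest change was Acod1, which makes itaconate from cis-aconitate. Acod1 had 3880.5, 5937, 5968, 4512 and 6070.2 CPM in the 5 M1 libraries, against 14.4, 17.3, 12.8, 7.32 and 10.1 CPM in the 5 M0 libraries. It rose by 8.73 ± 0.31 (adjusted p = 2.17e-21). Of 24 tested genes 2 rose and 5 fell, beside 16.4% that rose and 17.9% that fell of all genes. The 5 that fell were isocitrate dehydrogenase genes Idh1 (47.2 CPM in M1 and 378 CPM in M0), Idh2 (-2.99 ± 0.09) and Idh3g (-1.81 ± 0.08), the succinyl-CoA ligase gene Suclg2 (-2.86 ± 0.11) and the fumarase gene Fh1 (-2.03 ± 0.12). The succinate dehydrogenase subunit gene Sdhd rose by 1.31 ± 0.07. Called at any size, 15 were higher and 6 lower, but 7 and 12 with library totals alone.

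Glycolysis genes rose as a group. Of 29 tested 18 rose and none fell, beside 16.4% and 17.9% of all genes (median 1.66). Under library totals alone 15 rose and 1 fell. The glucose transporter gene Slc2a1 had 239, 153, 163, 174 and 179 CPM in the 5 M1 libraries, against 15.4, 14.9, 16.1, 18.05 and 14.5 CPM in the 5 M0 libraries. It rose by 3.52 ± 0.11, the hexokinase gene Hk3 by 3.51 ± 0.11, the lactate exporter gene Slc16a3 by 3.43 ± 0.10, Pfkfb3, which makes an activator of phosphofructokinase, by 3.20 ± 0.09, and the lactate dehydrogenase gene Ldha by 2.73 ± 0.09. Hif1a, a transcription factor that drives several of these genes, rose by 1.86 ± 0.14. Gapdh was at only 39.9 CPM in M1 and 7.13 CPM in M0 and has many near-identical copies, so its value is uncertain. Transketolase, Tkt, in the pentose phosphate branch was called lower (-0.56 ± 0.09).

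The respiratory chain changed less. Of 34 nuclear-encoded subunit genes 2 rose and none fell, beside 16.4% and 17.9% of all genes (median 0.43, and -0.04 with library totals alone). The 2 were cytochrome c, Cycs (3.42 ± 0.09), and Cox5a (1.67 ± 0.09). Called at any size, 25 were higher and 5 lower, beside 39.4% and 40.2% of all genes. With library totals alone 10 were called higher. Of the 13 protein-coding genes of the mitochondrial genome 4 fell, beside 17.9% of all genes, and 8 were called lower, beside 40.2% (median -1.24). Without WT M0 replicate 2, which held the most mitochondrial reads, 6 were called lower and 1 higher, and the median was -0.78. The mitochondrial share of reads was 0.938 ± 0.163% in M1 and 2.00 ± 1.50% in M0 (SD, n = 5 each, two-sided exact permutation p = 0.0635, adjusted over 4 library measures 0.0635). The M1 minus M0 difference of this share was -1.06 percentage points, and -0.42 without WT M0 replicate 2 (exact permutation p = 0.0952).

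Of 19 fatty acid oxidation genes 4 rose and 4 fell, beside 16.4% that rose and 17.9% that fell of all genes (median -0.21). Acsl1, which activates fatty acids, rose by 3.87 ± 0.11, while Acaa2 and Hadh, enzymes of the β-oxidation spiral, fell by 2.24 ± 0.12 and 2.08 ± 0.07. Of 12 tested genes of LXR signalling and lipid efflux 2 rose and 5 fell, beside 16.4% and 17.9% of all genes. The median of 0.13 was -0.35 with library totals alone. Beside Apoe, the cholesterol exporter gene Abca1 fell by 3.51 ± 0.12 (69.7 CPM in M1 and 797 CPM in M0), while Nr1h3, which encodes LXRα, rose by 2.75 ± 0.18. Of 23 sterol synthesis genes 4 rose and 2 fell, beside the same 16.4% and 17.9% (median 0.09, and -0.37 with library totals alone). Ch25h, which makes 25-hydroxycholesterol, rose by 6.80 ± 0.43.

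Iron storage and export genes moved in opposite directions. The exporter ferroportin, Slc40a1, had 29.6, 47.04, 41.04, 37.2 and 37.04 CPM in the 5 M1 libraries, against 877, 1153, 1205, 995 and 1199 CPM in the 5 M0 libraries. It fell by 4.82 ± 0.14 (adjusted p = 3.38e-23), and the transferrin receptor gene Tfrc by 2.70 ± 0.16. Of 13 tested genes 6 rose and 3 fell, beside 16.4% and 17.9% of all genes. In addition to Fth1, the heme oxygenase gene Hmox1 (2.43 ± 0.11), the siderophore-binding Lcn2 (3.04 ± 0.32) and the importer gene Slc11a2 (2.32 ± 0.10) rose.

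In tryptophan and NAD metabolism 8 of 15 rose and 3 fell, beside 16.4% and 17.9% of all genes (median 2.63). Cd38, an NAD-consuming enzyme, rose by 6.86 ± 0.21, Kynu, which cleaves kynurenine, by 6.35 ± 0.20, and Nampt, the salvage enzyme of NAD, by 2.97 ± 0.16. Ido1 rose to 4.1 CPM in M1, against 0.0204 CPM in M0, and Kmo fell by 7.15 ± 0.25. Of 23 tested oxidase and redox genes 8 rose and 3 fell, beside the same 16.4% and 17.9% (median 0.61). The mitochondrial superoxide dismutase gene Sod2 rose by 2.70 ± 0.10 and the cystine importer gene Slc7a11 by 2.80 ± 0.24, while catalase, Cat, fell by 1.81 ± 0.09 and the cytosolic Sod1 by 1.21 ± 0.07. Cybb, the catalytic subunit of the phagocyte oxidase, was called higher (0.94 ± 0.09).

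The prostanoid genes separated by enzyme. Of 15 tested 4 rose and 7 fell, beside 16.4% and 17.9% of all genes (median -0.65). The inducible steps toward prostaglandin E2 rose, Pla2g4a, which frees arachidonate, by 5.56 ± 0.10 and the synthase gene Ptges by 5.86 ± 0.19, beside Ptgs2. The constitutive cyclooxygenase gene Ptgs1 fell by 4.88 ± 0.15, the prostaglandin D2 synthase gene Hpgds by 2.03 ± 0.13 and the receptor genes Ptger2 and Ptger4 by 2.51 ± 0.13 and 1.80 ± 0.12. Alox5, which starts leukotriene synthesis, fell by 3.56 ± 0.52 from a low level (0.063 CPM in M1 and 0.803 CPM in M0).

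Of 20 tested genes of inflammasomes and lytic cell death 11 rose and 1 fell, beside 16.4% and 17.9% of all genes (median 1.39). The sensor of cytosolic LPS, Casp4, rose by 3.85 ± 0.13, Casp1 by 3.07 ± 0.11, the necroptosis executor gene Mlkl by 3.57 ± 0.11 and the nucleic acid sensor gene Zbp1 by 4.66 ± 0.20. Nlrp3 was called lower (39.4 ± 10.6 CPM in M1 and 89.1 ± 2.0 CPM in M0), the adaptor gene Pycard likewise (-0.98 ± 0.08), and Nlrp1b fell by 1.98 ± 0.08.

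Genes of uptake were divided. Of 20 tested scavenger and efferocytosis genes 7 rose and 8 fell, beside 16.4% and 17.9% of all genes (median -0.66). The mannose receptor gene Mrc1 had 9.33, 15.1, 15.7, 9.43 and 9.83 CPM in the 5 M1 libraries, against 582, 808, 661, 516 and 564 CPM in the 5 M0 libraries. It fell by 5.72 ± 0.17, Cd163 by 7.13 ± 0.37 and the lectin gene Clec10a by 6.06 ± 0.16. Gas6, the bridge between dying cells and TAM receptors, fell by 4.89 ± 0.11. Marco rose by 4.69 ± 0.38, the lectin gene Clec4e by 3.46 ± 0.26, Msr1 by 2.21 ± 0.12 and the TAM receptor gene Axl by 1.91 ± 0.15. Of 18 tested Fc receptor and complement genes 7 rose and 5 fell, beside the same 16.4% and 17.9%. Their median was 0.15, and -0.33 with library totals alone. C3 and factor B, Cfb (6.20 ± 0.31), rose, and the inhibitory Fc receptor gene Fcgr2b and the C1q genes C1qa and C1qc fell by 1.79 ± 0.12, 2.23 ± 0.31 and 1.42 ± 0.18. C3 had 6535, 8269, 8412, 7459.6 and 10071 CPM in the 5 M1 libraries, against 116, 117, 95.2, 93.4 and 87.6 CPM in the 5 M0 libraries.

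Of 30 genes of the lysosome 6 rose and 4 fell, close to the 16.4% that rose and 17.9% that fell of all genes (median -0.06, and 0.0064 without WT M0 replicate 2), with 2 and 10 under library totals alone. Cathepsin C and cathepsin H, Ctsc and Ctsh, rose by 2.75 ± 0.11 and 2.48 ± 0.05, and the glycosidase genes Man2b1, Hexa and Gusb fell by 2.73 ± 0.09, 1.78 ± 0.07 and 1.50 ± 0.09. Of 14 proton pump subunit genes 2 rose and 1 fell, under both of those shares (median 0.28, and -0.19 with library totals alone). The subunit that fell was Atp6v0d2, by 2.96 ± 0.19. Of 21 integrin and cytoskeleton genes 8 rose and 2 fell, beside the same 16.4% and 17.9%. Their median was 0.39, and -0.08 with library totals alone. Itga5, the fibronectin receptor chain, rose by 3.63 ± 0.12 and Itga4 fell by 2.78 ± 0.18.

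Of 23 tested transcription factors of the macrophage lineage 5 rose and 10 fell, beside 16.4% that rose and 17.9% that fell of all genes (median -0.51). Maf, Cebpa and Pparg, factors of resting macrophages, fell by 2.17 ± 0.14, 2.27 ± 0.13 and 2.31 ± 0.10. Cebpb (2.67 ± 0.11) and Klf4 (5.75 ± 0.11) rose, and Spi1, which encodes the lineage factor PU.1, was called higher at 0.84 ± 0.07. Of 21 tested genes known from interleukin-4 activation 6 rose and 7 fell, beside the same 16.4% and 17.9%. Egr2 fell by 5.14 ± 0.16, Irf4 fell by 5.09 ± 0.21, and Ccl22 rose by 6.40 ± 0.37. Of 11 thyroid hormone pathway genes 2 fell and none rose, beside 17.9% that fell and 16.4% that rose of all genes. The 2 were Rxra, which fell by 2.14 ± 0.08, and Thrb, at 0.0079 CPM in M1 and 0.362 CPM in M0. Only 1 M1 library had any Thrb read (0.0395 CPM), so its value lies at the floor.

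Ribosomal protein genes fell as a group. Of 48 tested, 37 fell past 2-fold beside 17.9% of all genes, none rose, and the median was -1.68. Their summed level was 4297 to 5887 CPM in M1 and 10784 to 13554 CPM in M0, with no overlap. Rpl4 had 246, 203, 192, 185 and 205 CPM in the 5 M1 libraries, against 711, 794, 711, 710.4 and 680.4 CPM in the 5 M0 libraries. The largest decrease was that of Rpl10a, by 3.63 ± 0.12, and Rps24 was called higher (0.76 ± 0.06). These genes have many near-identical copies, so single values are uncertain, and the sum over the list carries the same limit.

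Of 36 tested cell cycle genes 9 rose and 10 fell, beside 16.4% that rose and 17.9% that fell of all genes (median 0.12, and -0.35 with library totals alone). The cyclins of G1 rose, Ccne1 by 6.69 ± 0.13, Ccnd2 by 6.09 ± 0.18 and Ccnd1 by 4.96 ± 0.17. Ccnd1 had 531, 614, 634, 658 and 645 CPM in the 5 M1 libraries, against 30.3, 14.4, 14.9, 21.03 and 18.3 CPM in the 5 M0 libraries. The DNA helicase subunit genes Mcm7, Mcm3 and Mcm2 fell by 3.07 ± 0.18, 1.95 ± 0.11 and 1.93 ± 0.14, Mcm6 fell as well (14.3 CPM in M1 and 43.4 CPM in M0), and the mitotic cyclin genes Ccnb2 and Ccna2 by 3.87 ± 0.53 and 3.07 ± 0.37, both under 5 CPM on average in either state. A CCAAT match was present in 72.4% of the promoters of this list (21 of 29) and in 39.3% of all tested. Of 14 genes for CDK inhibitors and p53 targets 6 rose and 2 fell, beside the same 16.4% and 17.9%. Their median was 0.29, and -0.18 with library totals alone. Cdkn1a, which encodes p21, rose by 2.65 ± 0.10 (1526 CPM in M1 and 242 CPM in M0). Of 19 genes of the unfolded protein and integrated stress responses 7 rose and 1 fell, beside the same 16.4% and 17.9% (median 0.34). Under library totals alone 2 rose and 3 fell. The largest increase was that of Trib3 (2.95 ± 0.23).

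Genes that lie side by side in the genome moved more alike than distant ones. Among 12301 tested protein-coding genes placed in GENCODE order, the fold changes of adjacent genes had a Pearson correlation of 0.222 across 12275 pairs, against 0.0098 for genes 10 places apart. Genes are not independent replicates, and neighbours can share reads where they overlap. There were 75 runs of at least 4 consecutive genes that all rose (48 runs) or all fell (27 runs). The longest, 11 genes on chromosome 11, held the GTPase genes Irgm1, Tgtp1, Tgtp2 and Ifi47 and rose by a median of 3.71. In the major histocompatibility complex on chromosome 17, 9 consecutive genes from H2-DMb1 through Psmb9, Tap1, Psmb8 and Tap2 to H2-Eb1 rose by a median of 2.99. Runs of 7 genes held the Schlafen family (Slfn1 to Slfn9, median 2.92) and the Trim12 and Trim30 genes (median 3.32). The longest run downward had 10 genes with a median of -3.48 and held the Cd300 receptor family of chromosome 11, whose members regulate myeloid activation. A run of 7 genes of the Bex and Tceal families on the X chromosome had a median of -3.26. The runs named here hold families of similar genes, so the split of reads within them is uncertain.

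**Figure D4:**
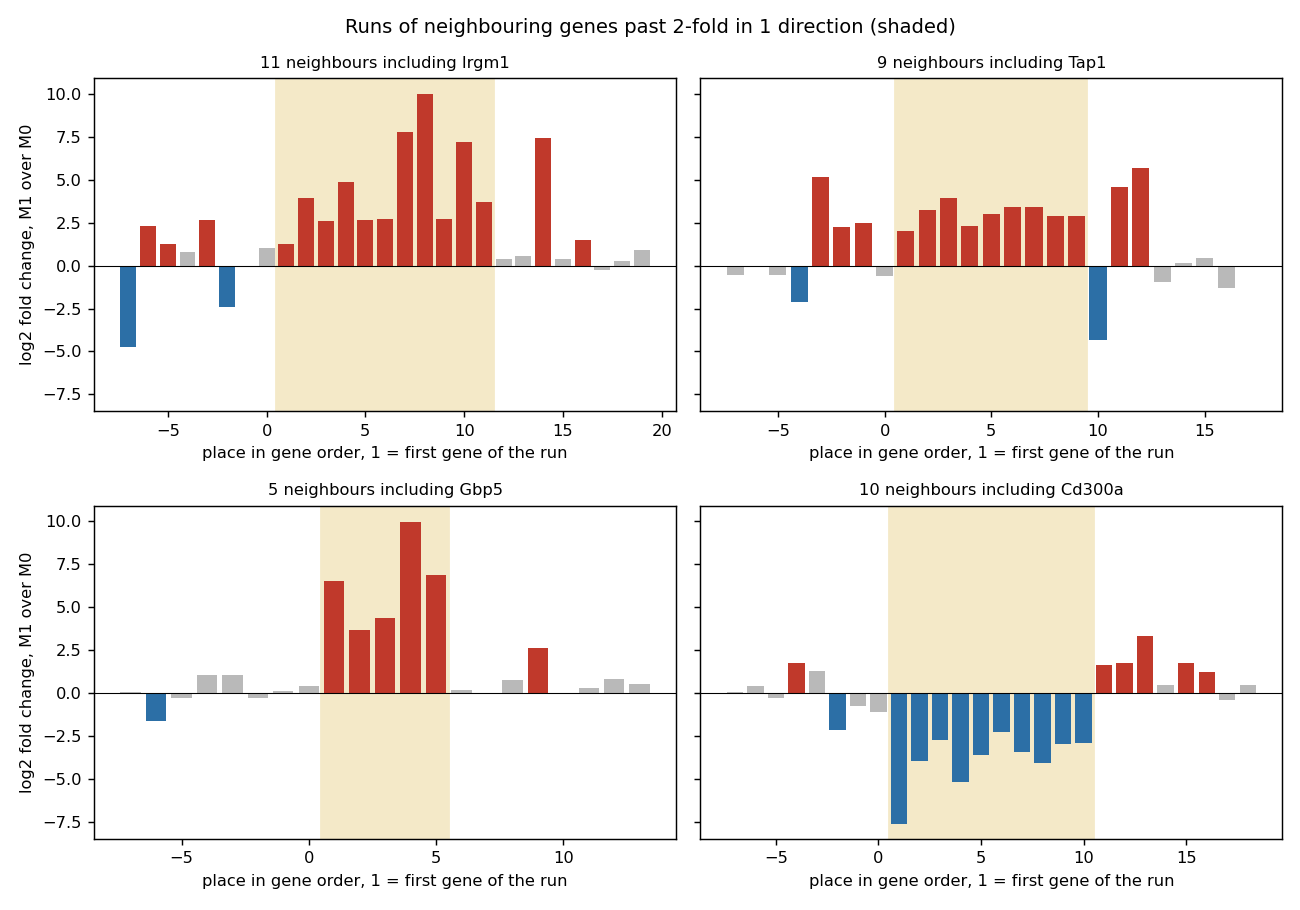
Bars give the log2 fold changes of WT M1 over WT M0 for consecutive tested protein-coding genes in 4 genome neighbourhoods, placed by gene order and not by distance, in red where a gene rose past 2-fold, in blue where it fell and in grey otherwise. The shaded spans mark the runs, which hold 11, 9 and 5 genes that rose (around Irgm1, Tap1 and Gbp5) and 10 that fell (around Cd300a).

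The response was also measured in TRα1PV macrophages, which carry a mutant thyroid hormone receptor α1 and were given the same stimulus. There 12658 genes were called (80.7%), 6275 higher (40%) and 6383 lower (40.7%; 4042 and 8958 with library totals alone), and 2544 of the 2573 genes that rose in WT were called higher in TRα1PV and 2754 of the 2807 that fell were called lower. The median fold change of the 2573 genes was 2.29 in WT and 2.29 in TRα1PV. Across the 15686 genes the fold changes had a Pearson correlation of 0.949, a description across genes that are not independent. The sizes still differed for 4175 genes (26.6%). The WT fold change was more positive for 2084 and more negative for 2091 (2473 and 1638 with library totals alone). For 660 of the 4175 the estimated difference was over 2-fold, a size that was not itself tested. In 146 genes the responses were called in opposite directions. The M0 libraries of the genotypes also differed in library measures. Reads outside genes were 11.7 to 14.4% in TRα1PV M0 and 9.42 to 13.9% in WT M0, the highest WT value being that of replicate 2. Read counts in genes were 30924917 to 59086252 in TRα1PV M0 and 28853239 to 39104858 in WT M0. The part of these measures in the response differences was not tested.

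Interferon-inducible genes had larger fold changes in WT. In the GTPase list the difference was called for 18 of 19 genes and in the type I interferon list for 25 of 30, all larger in WT, beside 13.3% of all genes. The summed level of the 19 GTPase genes was 22551 to 28259.5 CPM in WT M1 and 372 to 551 CPM in WT M0, and 20008 to 22240.2 CPM in TRα1PV M1 and 686 to 1175 CPM in TRα1PV M0. For the interferon list the sums in M1 were 40056 to 49192 CPM in WT and 46599 to 50899.8 CPM in TRα1PV, and in M0 2477 to 3281 CPM in WT and 3698 to 6183 CPM in TRα1PV. In the interferon list the M1 ranges of the genotypes overlapped and the M0 ranges did not, and in the GTPase list neither did. Cxcl10 was at 1357 CPM in WT M1 and 11.2 CPM in WT M0, and at 1131 CPM in TRα1PV M1 and 47.05 CPM in TRα1PV M0. Its responses differed by 2.34 ± 0.30 on the log2 scale (adjusted p = 6.02e-06). Ifi47 showed the same form (382 CPM in WT M1 and 29.3 CPM in WT M0, 342 CPM in TRα1PV M1 and 81.99 CPM in TRα1PV M0, difference 1.65 ± 0.17), and Iigp1 too (difference 2.18 ± 0.31). The other form, a lower M1 level in TRα1PV, was seen in Ciita (22.6 CPM in WT M1, 5.33 CPM in TRα1PV M1, difference 2.20 ± 0.36) and in Intu, a gene of ciliogenesis (124 and 36.1 CPM, difference 1.37 ± 0.13). Gbp2b had both forms (291 CPM in WT M1, 102 CPM in TRα1PV M1, difference 2.90 ± 0.54). Its gap in M1 levels covers only part of the difference, and the rest lies in the M0 levels. In the class II list 5 of 12 genes had larger fold changes in WT and none smaller.

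Glycolysis genes went the other way. For 13 of 29 the response was smaller in WT and for none larger, beside 13.3% of all genes with a more negative WT value. Slc2a1 was at 182 CPM in WT M1 and 15.8 CPM in WT M0, and at 195 CPM in TRα1PV M1 and 8.61 CPM in TRα1PV M0, a difference of -0.98 ± 0.14 (adjusted p = 1.9e-05). Hk3 differed by -1.07 ± 0.14 and Slc16a3 by -0.95 ± 0.14. The summed level of the list was 14697 to 17396 CPM in WT M1 and 14957 to 18689.8 CPM in TRα1PV M1, and 4118 to 4994 CPM in WT M0 and 3646 to 4095 CPM in TRα1PV M0, so only the M0 ranges lay apart. In the AP-1 list 8 of 15 genes and in the stress response list 9 of 19 had smaller or more negative values in WT and none larger. Of single genes, the smallest p-values of the difference belonged to Ighm, Rin2, a RAB5 exchange factor, and Apobec1, an RNA-editing deaminase, besides Intu and Ifi47. Ighm was at 1.13 CPM in WT M1 and 230.2 CPM in WT M0, and at 0.807 CPM in TRα1PV M1 and 7.28 CPM in TRα1PV M0. Rin2 was at 101 CPM in WT M1 and 63.9 CPM in WT M0, and at 103 CPM in TRα1PV M1 and 21.2 CPM in TRα1PV M0, and Apobec1 differed by -0.71 ± 0.07. For Ighm and Rin2 the M1 levels were close and the M0 levels apart. The response of Cd38, which encodes an NAD hydrolase, differed by -1.81 ± 0.33.

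**Figure D5:**
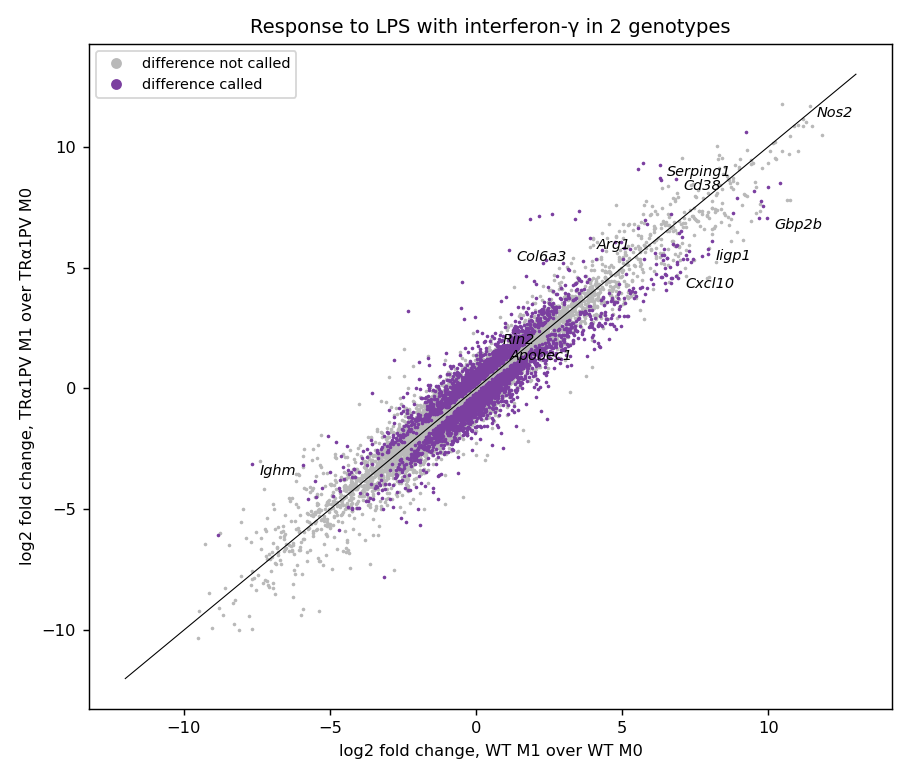
Log2 fold change of M1 over M0 in WT (horizontal) and in TRα1PV (vertical) for 15686 tested genes, in purple where the difference between the responses was called and in grey where it was not. Points below the diagonal line had the more positive fold change in WT, as did Gbp2b, Iigp1 and Cxcl10, and points above it in TRα1PV, as did Cd38 and Ighm.

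The same M1 libraries were set against WT M2, which differ from them by the stimulus, so this contrast has no M0 in it. Of 15686 genes 12313 were called (78.5%), 6097 higher (38.9%) and 6216 lower (39.6%) in M1 (4313 and 8218 with library totals alone). Among genes with a read in M2 the largest differences upward were again Cxcl11 (11.54 ± 0.25) and Il12b (11.51 ± 0.45), and Slfn4, a Schlafen family gene of myeloid cells, stood 10.20 ± 0.35 above M2. All 19 GTPase genes and all 30 type I interferon genes were called higher in M1. Of the 21 genes known from interleukin-4 activation 5 were higher and 16 lower (median -5.79). Retnla, which encodes the secreted protein FIZZ1, was at 7.11 CPM in M1 and 10041 CPM in M2, Chil3, which encodes the chitinase-like YM1, at 5.45 CPM in M1 and 2019.7 CPM in M2, and Mrc1 at 11.9 CPM in M1 and 2169.7 CPM in M2. Arg1 was at 7.27 CPM in M1 and 403 CPM in M2. Class II genes were expressed in both states, with 7 of 12 called higher and 2 lower in M1, and a summed level of 4806 to 5546 CPM in M1 and 5753 to 6749.9 CPM in M2. Of 36 cell cycle genes 9 were higher and 25 lower in M1, and of 23 sterol synthesis genes 3 and 19.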

How the data were processed

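Polyadenylated RNA of cultured bone marrow macrophages was sequenced by the authors, and read counts per gene were deposited for each of 30 libraries (5 per group). Per the submitters' processing notes, Trimmomatic 0.39, HISAT2 2.2.1, HTSeq 1.99.2 and build GRCm39 were used, and the strand setting of the counting was not given in the sources used here. Rows that name no gene held 22.0 to 28.1% of reads and were left out. Gene counts (23015952 to 59086252 per library) were fitted with edgeR 4.0.16 (R 4.3.3) in one quasi-likelihood model of 6 groups, after its filter for low counts (minimum 10) and TMM scaling. Contrasts were WT M1 against WT M0, against no change and against a 2-fold change, the same response in TRα1PV, the difference of both responses, and WT M1 against WT M2. Adjusted p-values are over all 15686 tested genes, with 0.05 as the threshold. Single values per library were compared by two-sided exact permutation over 252 arrangements, whose smallest p is 0.00794.

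The 49 gene lists and the comparisons were chosen with earlier results of these data known. Genes named apart from the lists had to average 3 or more on the log2 CPM scale. They were the 10 largest changes each way without overlap of the groups, the 10 largest gains and losses in CPM and the 5 smallest p-values of the response difference. Genes without any read in one state and further list members were picked after their values were seen, and a few list members are not reported here. Promoter windows came from RefSeq (GRCm38.p6), gene order and biotype from GENCODE. The labels give the replicate number under the tag batch and do not say what a number shares. Deviations of same-numbered M1 and M0 libraries correlated between -0.18 and 0.37 across genes, and 1 of 5 M1 libraries correlated best with its own number. Alternatives were other scalings, limma 3.58.1 (voom), DESeq2 1.42.0, no filter, the compared groups alone, the replicate block and leaving out each library.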

Additional observations from a re-analysis of the deposited data

Results flagged for a closer look

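In 31 of 554 groups of 5 libraries (the M1 and M0 libraries of 273 named genes and 4 library measures), 1 library lay apart from the other 4 by Dixon's ratio, a gap over range above 0.71. For genes the ratio was taken on log2 CPM, while the levels given here are CPM. Chance flags about 1 group in 20. Of the 31, 14 were WT M0 replicate 2. It was lowest for Ccl4 (ratio 0.728), Cebpa (0.879), Fosl2 (0.717), H2-DMb1 (0.727), Hk3 (0.743), Il27 (0.718), Rpl10a (0.777), Slc11a2 (0.719) and Trib3 (0.755), and highest for Cxcl1 (0.783), Ido1 (1), Nlrp1b (0.779), Rpl4 (0.716) and Selenop (0.755). In Cebpa it had 89.6 CPM against 139 to 147 CPM in the other M0 libraries, and in Selenop 8183 CPM against 4476 to 5190 CPM.

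Other M0 libraries stood apart for Apoe (replicate 4 highest, 0.718), C5ar1 (replicate 1 highest, 0.863), Dusp1 (replicate 1 highest, 0.765), Mcm6 (replicate 1 highest, 0.791), Ptgs1 (replicate 4 highest, 0.744) and Ighm (replicate 5 lowest, 0.734). Among M1 libraries, replicate 1 was lowest for Gbp4 (0.749), Il1a (0.729) and Mx1 (0.845) and highest for Eef1a1 (0.829) and Rpl10a (0.713). Cxcl9 (replicate 3, 0.745), Ccnb2 (replicate 2, 0.786) and Thrb (replicate 5, 1) had a high M1 library, and Dusp1 (replicate 4, 0.726) and Idh2 (replicate 3, 0.713) a low one. The high library had only 0.0395 CPM for Thrb, and 0.102 CPM for Ido1 in M0. The other libraries of those groups had no read, which fixes the ratio at 1. M1 replicate 5 had the fewest genes detected, 19490 against 19915 to 20060 (0.746).

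The WT and TRα1PV responses differed, by the test of the difference itself, in 115 of the 273 named genes, beside 26.6% of all genes. The value was more positive in WT for 71 of the 273, beside 13.3% of all genes. Some of the 273 were named for the small p of this difference, and the lists were chosen with earlier results known, so these counts are not a test. Of the genes whose difference is described, the values of WT minus TRα1PV were -4.52 for Ighm, -1.81 for Cd38, -1.62 for Rin2, -1.07 for Hk3, -0.98 for Slc2a1, -0.95 for Slc16a3, -0.71 for Apobec1, 1.37 for Intu, 1.65 for Ifi47, 2.18 for Iigp1, 2.20 for Ciita, 2.34 for Cxcl10 and 2.90 for Gbp2b.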

How the results depend on the processing

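No gene named in the text changed direction under any alternative run, and of 4914 refits of the 273 named responses 4904 kept their side of the threshold. The exceptions were Il10 and Ly96 with library totals alone (0.19 and 0.25, not called), Ly96 with the compared groups alone, Ccr2 under 5 settings and Retnla under 2 (called lower with library totals alone, -0.89, and without WT M0 replicate 3). Library totals alone moved the counts: 3907 genes were called higher in WT M1 and 4042 in TRα1PV M1, and 4354 fell past 2-fold in WT. Without the filter 30660 genes were tested and 7110 were called higher and 6869 lower in WT M1. With the compared groups alone 14354 genes were tested, of which 5345 were called higher and 5711 lower, and 2202 rose and 2537 fell. With the replicate number as a block, 6227 were higher and 6334 lower (6184 and 6303 without it), the counts of the response difference were 2346 and 2271, and of the named genes only Ccr2 changed its call, in the paired fit of the compared groups alone. Leaving out each library gave 6087 to 6323 genes higher and 6188 to 6334 lower, 2544 to 2623 that rose and 2751 to 2862 that fell, 1537 to 2973 more positive and 1604 to 3020 more negative responses in WT than in TRα1PV, the settings without a TRα1PV or M2 library being added after the data were seen.

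The M1 minus M0 difference in the share of reads outside genes ranged from -2.21 to -1.09 percentage points and that in the mitochondrial share from -1.33 to -0.42, with an exact permutation p under 0.05 only without WT M1 replicate 4 or WT M0 replicate 1 for the first and without WT M0 replicate 1 or 4 for the second. In the 250 bases before the start alone, 10.6% of promoters of genes that rose held an ISRE match. The causes were not tested. CPM give shares of RNA and not amounts per cell, and genes with few reads, such as Ifnb1 or Cxcl1, have wide counting error.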

Other observations

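Some list members not described above changed strongly. The oxidase gene Nox1 was at 0.615 CPM in M1 and 0.0774 CPM in M0 (3.01 ± 0.44 on the log2 scale). Of the dendritic cell markers, Xcr1 and Clec9a, genes of cross-presenting dendritic cells, were at 1.55 CPM in M1 and 0.0507 CPM in M0 (4.81 ± 0.47 on the log2 scale) and 4.43 CPM in M1 and 0.231 CPM in M0 (4.26 ± 0.33 on the log2 scale), while Siglech had no read in M1 and was at least 23.8-fold lower. Among fibroblast markers decorin, Dcn, was at 2.49 CPM in M1 and 0.0698 CPM in M0 (5.04 ± 0.32 on the log2 scale). Ocstamp, a fusion gene of osteoclasts, was at 17.7 CPM in M1 and 0.0876 CPM in M0 (7.60 ± 0.32 on the log2 scale). These genes were chosen after their values were seen.

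Within groups, the median SD of a gene's log2 CPM was 0.129 in M1 and 0.177 in M0, and 0.115 in M0 without replicate 2. The 10 most abundant genes held 11.8 ± 0.326% of reads in genes in M1 and 13.4 ± 0.686% in M0 (SD, n = 5 each, two-sided exact permutation p = 0.00794, adjusted 0.0317), and the number of genes with a read was 19888 ± 229 in M1 and 20492 ± 377 in M0 (exact permutation p = 0.0238, adjusted 0.0476).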
